A study of Drosophila melanogaster with 9 samples.

Results

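The microRNA hairpin miR-958 of Drosophila melanogaster gives a mature miRNA from each of its arms, dme-miR-958-5p and dme-miR-958-3p (below without the species prefix). These 2 rows, of 467 in the deposited miRNA table, were taken by hairpin name, and each arm, their sum and their ratio were followed through 9 small RNA libraries from adult midguts. Every library came from wild-type Oregon-R flies, in 3 groups of 3. The mock group received sucrose and was sampled at day 0, at an age of 4 to 5 days. Both other groups received the treatment that the labels write as Pe, without spelling it out. They were sampled at day 0, at 4 to 5 days of age, and at day 3, at 7 to 8 days of age. The series examined how regeneration of the midgut starts and ends. No mock group was sampled at day 3, so treatment, time and age cannot be told apart between Pe day 3 and mock. Nothing in the labels ties replicate libraries to separate flies, and p-values therefore measure the spread between these libraries, which may be technical.

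A miRNA hairpin is cut by Drosha and then by Dicer-1 into a short duplex of its 5p and 3p arms. One strand is usually kept in the Argonaute protein and the other is usually discarded, and because the arms differ in their seed bases they pair with different messenger RNAs. In Drosophila, miR-958 has been reported to lower Toll signalling by acting on the receptor Toll and on the transcription factor Dif. It has also been reported as a stress-responsive miRNA of the midgut that acts on BMP signalling, in work that may rest on these same libraries. The adult midgut is renewed by intestinal stem cells, which give rise to absorptive enterocytes and hormone-secreting enteroendocrine cells.

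In the Ensembl annotation of assembly BDGP6 (dm6), mir-958 is a hairpin of 92 bases on the minus strand of chromosome arm 3L, from 22669289 to 22669380. It lies within exon 1 of the long non-coding RNA gene lncRNA:CR43270 (3L, 22665300 to 22669528), on the same strand, and the RefSeq gene table lists that gene also as pri-mir-958. The annotated mature RNA nearer the hairpin's 5′ end has 23 bases, from 22669343 to 22669365, and covers hairpin bases 16 to 38. The mature RNA nearer the 3′ end has 22 bases, from 22669302 to 22669323, and covers hairpin bases 58 to 79. The nearest protein-coding gene, Jhbp6, starts 575 bases away on the plus strand, and no other miRNA hairpin was annotated within 10 kb.

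The libraries held 224873 to 1238105 miRNA reads, recovered from the deposited RPM (reads per 1000000 miRNA reads). Neither arm fell below 466 reads in any library. The midgut markers miR-281 and miR-263a summed to 32092 RPM or more in every library. The members of this sum did not move alike from mock to Pe day 0 and Pe day 3. In the limma fit of hairpin sums below, miR-281-2 had log2 changes of -1.06 and -1.02 (adjusted p = 0.031 and 0.018). miR-281-1 had -0.82 and -1.03 (adjusted p = 0.112 and 0.025), and neither miR-281-3p (-0.42 and -0.66) nor miR-263a (-0.14 and 0.28) passed. Of all hairpin sums, 7.69% and 23.1% were called there. The part of these falls was not tested. Of the markers of other tissues, those of muscle, miR-1 and miR-133, had 2 of 4 rows above 0. Their sum was between 64.2 and 140 RPM in every mock and Pe day 0 library, and between 267 and 382 RPM in every Pe day 3 library. The part of this rise in the Pe day 3 results was not tested. No list of the neuron, ovary, early embryo or testis exceeded 51.7 RPM in a library, and all 16 testis rows were at 0. Since whole midguts were sequenced, fewer cells of a type and less RNA per cell cannot be told apart.

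More reads of miR-958 came from the 5p arm in mock midguts and from the 3p arm in Pe day 3 midguts. Whether reads of both arms count their molecules alike was not tested. In the mock group the 3p arm made up 42.3%, 39.7% and 36.1% of the reads of both arms in replicates 1, 2 and 3. In the Pe day 0 libraries its share was 49.9%, 61.1% and 58.8%. The Pe day 3 libraries reached 57.0%, 66.7% and 73.0%. All 3 mock libraries therefore had more 5p than 3p reads. More 3p than 5p reads were found in 2 of the 3 Pe day 0 libraries and in all 3 Pe day 3 libraries. No mock library overlapped with a library of either Pe group, while the Pe day 0 and Pe day 3 libraries overlapped. The mean share rose from 39.4% ± 3.13 to 56.6% ± 5.91 and 65.6% ± 8.05 (SD, n = 3 each). The 95% Wilson interval, which covers counting error only, was 37.6% to 41.8% in mock replicate 2 and 58.9% to 63.2% in Pe day 0 replicate 2.

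**Figure D1:**
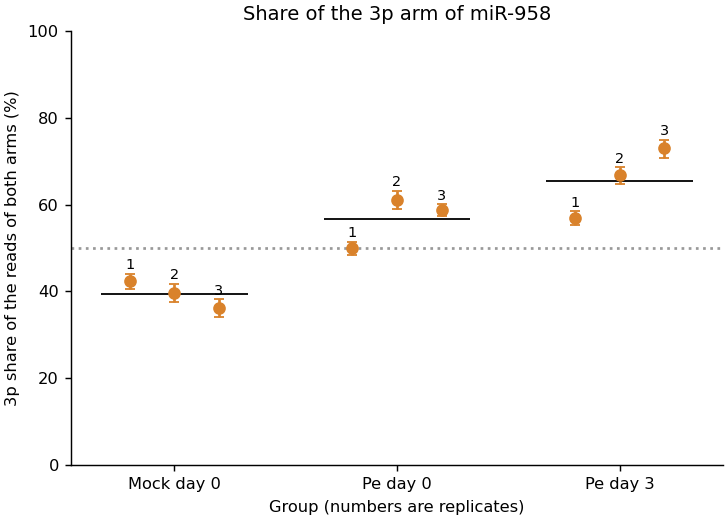
Percentage of the reads of both arms that came from the 3p arm (y axis) in each library, by group (x axis), with 95% Wilson intervals, replicate numbers above the points and group means as black lines. The dotted line marks equal reads of both arms. The mock libraries lie at 36.1% to 42.3%, and the Pe day 3 libraries at 57.0% to 73.0%.

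A ratio of arms within a library does not rest on how libraries are scaled against each other, so it is reported first here. The test was run with limma on log2(3p) minus log2(5p) for each of the 21 hairpins whose arms both passed a filter of 20.1 RPM in at least 3 libraries. For miR-958 this log2 ratio averaged -0.62 ± 0.19 in mock, 0.38 ± 0.35 in the Pe day 0 group and 0.95 ± 0.51 in the Pe day 3 group (SD, n = 3 each). By Pe day 3 the ratio of 3p to 5p had risen, relative to mock, 2.97-fold (log2 change 1.57 ± 0.33 SE, limma adjusted p = 0.00165), with a 95% interval of 0.88 to 2.26 on the log2 scale. The ratio was higher in 3 of 3 Pe day 3 libraries than in any mock library, as it was for 14.3% of hairpins. In that comparison limma called 5 of 21 hairpins, or 23.8%, miR-958 among them. Leaving out any single library kept this call for miR-958, with log2 changes of 1.33 to 1.84, in fits that called 2 to 10 hairpins. It was lost with the replicate block in a model of only mock and Pe day 3 (1.57, limma adjusted p = 0.059), an alternative added after seeing the data in which 0 of 19 hairpins were called.

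Already at Pe day 0 the log2 ratio of miR-958 lay above that of mock by 1.01 ± 0.33 SE, or 2.01-fold, with a 95% interval of 0.32 to 1.70. It did not pass limma's threshold (adjusted p = 0.091), although the libraries of these groups did not overlap. Such a rise without overlap was seen in 19% of the 21 hairpins. The adjusted p was 0.038 with the replicate number as a block and 0.033 with the block in a model of only these groups. limma called 0 of 21 hairpins (0%) here, with 4 at an unadjusted p under 0.05, against 4 with the block in either model. Leaving out Pe day 3 replicate 1 or Pe day 3 replicate 3, which are not part of the comparison but enter the shared spread, also brought a call (adjusted p = 9.29e-04 and 0.00455). Over all fits without a single library, 0 to 3 hairpins were called here.

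Between Pe day 0 and Pe day 3 the log2 ratio of miR-958 differed by 0.56 ± 0.33 SE and did not pass (limma adjusted p = 0.159, 4 of 21 hairpins or 19% called). The 95% interval ran from -0.13 to 1.25, which reaches a further shift toward 3p of 2.39-fold. Without Pe day 3 replicate 1, the library of that group with the lowest 3p share, the difference was 0.83 (adjusted p = 0.00737), and it fell to 0.32 without Pe day 3 replicate 3 and to 0.37 without Pe day 0 replicate 1 (adjusted p = 0.386 and 0.375). Over all fits without a single library, limma called 1 to 11 hairpins in this comparison. Within the Pe day 3 group the 3p share was highest in the shallowest library (73.0% at 224873 reads) and lowest in the deepest (57.0% at 864119 reads). The Pe day 0 group had no such order, with 58.8% at 1238105 reads, 49.9% at 809842 and 61.1% at 296702. In the mock group the deepest library had the highest share, with 42.3% at 707747 reads, 36.1% at 497997 and 39.7% at 363095. The part of depth in these values was not tested.

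The 3 groups were also compared together. The joint limma F test over the 3 groups called the arm ratio of miR-958 (adjusted p = 0.00603), as it did for 4 of 21 hairpins, or 19%. An exact permutation test of the same value over all possible assignments of the 9 libraries to 3 groups gave p = 0.0107, where the smallest p possible is 0.00357. Between single pairs of groups, such a test cannot go below 0.1.

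**Figure D2:**
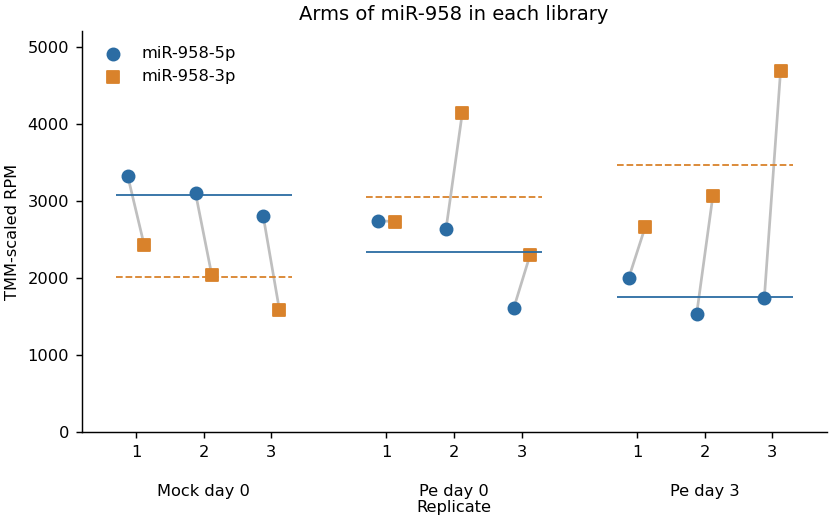
TMM-scaled RPM (y axis) of miR-958-5p (blue circles) and miR-958-3p (orange squares) in each library (x axis, by replicate within group), joined by grey lines, with group means as a solid line for 5p and a dashed line for 3p. The 5p mean falls from 3073 to 1756 and the 3p mean rises from 2017 to 3467 between mock and Pe day 3.

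Each arm was then followed on its own, as RPM scaled between libraries by TMM (trimmed mean of M values). miR-958-5p stood at 3318, 3100 and 2801 scaled RPM in mock replicates 1 to 3, while Pe day 0 had 2744, 2640 and 1611, and Pe day 3 had 2006, 1527 and 1735. Every Pe library was below every mock library, and the Pe groups overlapped. A fall without overlap was seen in 11% of the 73 miRNAs at Pe day 0 and in 9.59% at Pe day 3. Its mean went from 3073 ± 260 in mock to 1756 ± 241 scaled RPM at Pe day 3 (SD, n = 3), a 1.75-fold fall (log2 change -0.81 ± 0.23 SE) that passed limma's test (adjusted p = 0.016). There 13 of the 73 miRNAs were called, or 17.8%, and 4 of them were lower, or 5.48%. This call was kept without any single library (log2 change -0.998 to -0.803), in fits that called 4 to 15 miRNAs. The call was lost with RPM as deposited (-0.53, limma adjusted p = 0.143) and with plain empirical Bayes (adjusted p = 0.054).

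At Pe day 0 miR-958-5p averaged 2331 ± 626 scaled RPM (SD, n = 3). Neither its difference from mock (log2 change -0.43, 95% interval -0.91 to 0.04) nor the further step to Pe day 3 (-0.38, -0.85 to 0.10) passed limma's threshold. That step was -0.24 without Pe day 0 replicate 1 and -0.63 without Pe day 0 replicate 3. With the replicate block in a model of only mock and Pe day 0 the difference from mock was -0.61 and passed (limma adjusted p = 0.046). That fit called 13 miRNAs. Without the block and with all libraries in the model, limma called 3 of 73 miRNAs in mock against Pe day 0, or 4.11%. In Pe day 3 against Pe day 0 that model called 2, or 2.74%.

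miR-958-3p stood at 2433, 2039 and 1580 scaled RPM in mock replicates 1 to 3, while Pe day 0 had 2731, 4141 and 2296, and Pe day 3 had 2658, 3061 and 4681. All 3 Pe day 3 libraries were above all 3 mock libraries, as for 20.5% of the miRNAs, and Pe day 0 replicate 3 lay below mock replicate 1. Its mean went from 2017 ± 427 to 3467 ± 1071 scaled RPM (SD, n = 3), a 1.69-fold rise (log2 change 0.76 ± 0.26 SE) that passed limma's test (adjusted p = 0.037). Of the 73 miRNAs, 9 were called higher there, or 12.3%. The call for 3p was the less stable of the pair and was lost in 15 of 21 alternatives, with log2 changes of 0.40 to 1.04 over all of them. Without Pe day 3 replicate 3, which held the highest 3p level, the log2 change was 0.40, and without mock replicate 3, which held the lowest, it was 0.50 (adjusted p = 0.320 and 0.331). Among the fits without a library, the call was kept without Pe day 0 replicate 2 and without Pe day 3 replicate 1.

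At Pe day 0 miR-958-3p averaged 3056 ± 964 scaled RPM (SD, n = 3), a log2 change from mock of 0.58 with a 95% interval of 0.05 to 1.10 (limma adjusted p = 0.158). The change was 0.33 without Pe day 0 replicate 2 and 0.35 without mock replicate 3. From Pe day 0 to Pe day 3 the log2 change was 0.18, with an interval of -0.34 to 0.71. Its sign turned without Pe day 0 replicate 3 (-0.0033) and without Pe day 3 replicate 3 (-0.06), and it was larger without Pe day 0 replicate 2 (0.43) and without Pe day 3 replicate 1 (0.35). On RPM as deposited the 3p arm lay at 1506 to 2242 in mock and at 2357 to 4071 in Pe day 0 libraries. It lay at 2468 to 5590 in Pe day 3 libraries, so on this scale all 6 Pe libraries exceeded the mock libraries. How many other miRNAs did so on this scale was not tested. On it the median log2 change from mock over all tested miRNAs was 0.24 at Pe day 0 and 0.47 at Pe day 3. In mock, Pe day 0 and Pe day 3 libraries the 5p arm lay at 2485 to 3410, 1723 to 2595 and 1863 to 2072 RPM.

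Since scaling moves every miRNA, the arms were also set against the median of all 73. For Pe day 3 against mock, the median log2 change was 0.21 with TMM factors, 0.05 with median-of-ratios factors, 0.47 for unscaled RPM and 0.01 when library totals left out the 5 most abundant miRNAs. Relative to it, miR-958-5p stood at -1.02 to -1.001 and miR-958-3p at 0.55 to 0.57. RPM as deposited gave 10 higher and 0 lower calls, against 9 and 4 with TMM factors and 5 and 5 with median-of-ratios factors. A scaling moves all miRNAs of a library alike, so these distances are nearly fixed by construction and say nothing about stability. In the joint limma F test the 5p arm passed (adjusted p = 0.044) and the 3p arm did not (adjusted p = 0.069), with 10 of 73 miRNAs called, or 13.7%.

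The authors' deposited table lists miR-958-5p at -0.58 (log2, SE 0.23, adjusted p = 0.078) for Pe day 0 and at -0.97 (SE 0.23, adjusted p = 0.00107) for Pe day 3, each against mock. For miR-958-3p the authors' deposited table gave 0.41 (SE 0.32, adjusted p = 0.399) and 0.65 (SE 0.32, adjusted p = 0.206). Only the fall of 5p at Pe day 3 passed in the authors' deposited table, where 14 of 107 miRNAs with an adjusted p were called (13.1%), against 2 of 61 (3.28%) at Pe day 0. Both Pe comparisons share the mock libraries.

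**Figure D3:**
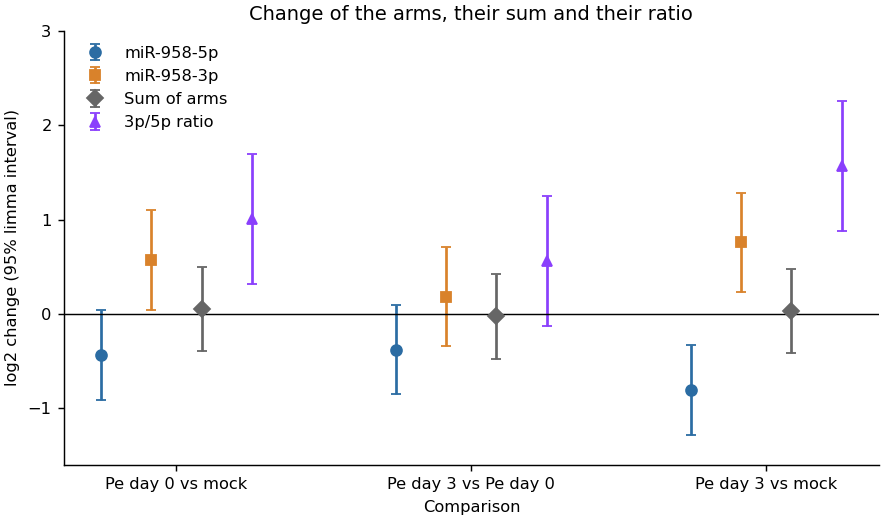
log2 change (y axis) of miR-958-5p, miR-958-3p, their sum and their 3p/5p ratio in each of the 3 comparisons (x axis), with 95% intervals from limma. From mock to Pe day 3 the arms lie at -0.81 and 0.76, the sum at 0.03 and the ratio at 1.57.

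The summed level of the hairpin did not pass in any comparison. The sum of both arms was 5751, 5139 and 4381 scaled RPM in mock replicates 1 to 3, with 5475, 6781 and 3907 in Pe day 0 libraries and 4664, 4588 and 6416 in those of Pe day 3. The groups overlapped throughout, with means of 5090 ± 686, 5387 ± 1439 and 5223 ± 1034 (SD, n = 3 each). The log2 change of the sum from mock to Pe day 3 was 0.03, with a 95% interval of -0.42 to 0.47, which leaves room for a level from 0.75 to 1.39 times that of mock. For Pe day 0 against mock it was 0.05 (-0.39 to 0.50), and from Pe day 0 to Pe day 3 it was -0.03 (-0.47 to 0.42). limma's adjusted p was between 0.923 and 0.988 in these comparisons, where 12, 4 and 2 of 52 hairpins were called (23.1%, 7.69% and 3.85%). The sign of each of these small values turned under several alternatives.

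By mean RPM over a group, the hairpin as a sum ranked 8th of 263 hairpin names in mock, 6th at Pe day 0 and 7th at Pe day 3. miR-958-5p ranked 10th of 467 miRNAs in mock, 14th at Pe day 0 and 16th at Pe day 3, while miR-958-3p ranked 14th, 12th and 11th. In mock, 5p stood at 2855 ± 489 RPM between miR-14-3p (3009 ± 864), of a hairpin known for its part in fat metabolism, and miR-305-3p (2762 ± 143), and the ranges of these neighbours overlapped with that of 5p. The 3p arm stood at 1857 ± 369 RPM between miR-317-3p (2000 ± 903) and miR-11-3p (1579 ± 650), again with overlapping ranges (SD, n = 3 each).

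Across the 9 libraries the log2 levels of the arms had a Pearson r of -0.39 with each other, and of 0.43 once each group's mean was removed. Scaling and depth are shared by both values of a library. The tested miRNAs of other hairpins most like miR-958-5p over the 9 libraries were miR-10-5p (r = 0.90), bantam-3p (0.75) and miR-125-5p (0.69), and the least like was miR-275-3p (-0.82). For miR-958-3p they were miR-10404-5p (r = 0.91), miR-9b-5p (0.78) and miR-34-5p (0.73), with miR-2b-3p at the other end (-0.80). The median r over the 71 miRNAs compared was -0.20 for 5p and 0.14 for 3p. Group means were not removed for these values, so differences between the groups enter them. miR-10-5p belongs to the Hox gene cluster, bantam promotes growth and blocks cell death, and miR-34 is known from ageing of the fly brain. The 3 miRNAs named for each arm were not shared between the arms. The miRNA nearest to 3p, miR-10404-5p, was scarce, with a mean of 43.4 RPM over the libraries.

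**Figure D4:**
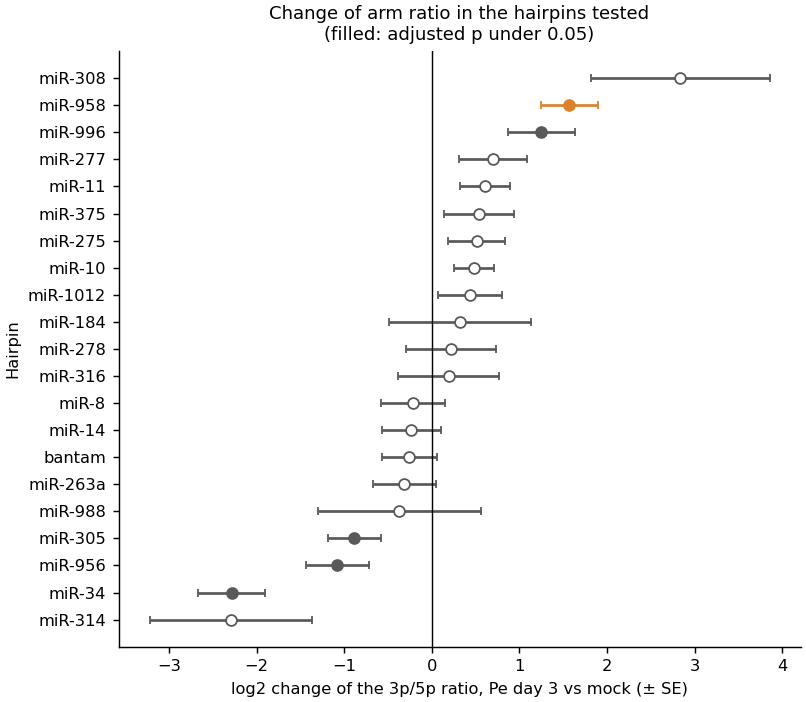
log2 change of the 3p/5p ratio from mock to Pe day 3 (x axis, ± SE from limma) in each of the 21 hairpins tested (y axis), ordered by value, with miR-958 in orange and filled points for an adjusted p under 0.05. miR-958 lies at 1.57, below miR-308 at 2.83 and above miR-996 at 1.25.

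Set among the 21 hairpins with both arms tested, the shift of miR-958 from mock to Pe day 3 was the fourth largest in size. The median change of arm ratio over the 21 hairpins was 0.22 on the log2 scale, and 12 lay above 0. Larger in size were those of miR-308 (2.83 ± 1.02 SE, limma adjusted p = 0.053), of miR-314 (-2.30 ± 0.93, adjusted p = 0.116) and of miR-34 (-2.28 ± 0.38, adjusted p = 2.38e-04). Besides miR-34 and miR-958, the hairpins called were miR-996, miR-956 and miR-305, which are named after their values were seen. Their log2 changes were 1.25, -1.08 and -0.88. A change of the arm with more reads between the mock and Pe day 3 means was seen in 3 of the 21 hairpins, miR-308, miR-314 and miR-958. Only in miR-958 did all mock libraries lie on one side of equal reads and all Pe day 3 libraries on the other. Such a crossing depends on how near to equal reads a hairpin lies in mock. The mean log2 ratio in mock was 13.0 for miR-956 and -10.3 for miR-263a. That of miR-34 went from -0.74 in mock to -3.02 at Pe day 3, further from equal reads. Between the mock and Pe day 0 means the arm with more reads differed in 4 hairpins. Of these, 2, miR-308 and miR-958, were also among the 3 at Pe day 3.

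Other hairpins that have been reported to act on Toll signalling, or on the antifungal peptide Drosomycin that it controls, were counted beside miR-958. The list was drawn up with earlier results of these data known. It held 9 hairpins, of which miR-1959 was not analysed here, and the other 8 had 16 rows, 9 of them above 0 in a library. Only 5 rows passed the filter, both arms of miR-958 and of miR-8 and the 3p arm of miR-317. In Pe day 3 against mock, limma called 1 of the 5 higher and 1 lower, which were the arms of miR-958 themselves, against 12.3% higher and 5.48% lower among all 73. In each of the other comparisons it called 0. limma voom also called 0 in those, and 1 of the 5 in Pe day 3 against mock, miR-958-5p. The share that voom called over all 73 is not given here, so its counts have no background beside them. At an unadjusted limma p under 0.05 there were 3 of the 5 from mock to Pe day 0, miR-958-3p among them, against 20 of all 73 (27.4%). From Pe day 0 to Pe day 3 there was 1 of the 5, against 13 of 73 (17.8%). From mock to Pe day 3 there were 2, the arms of miR-958, against 19 of 73. The median log2 change of the 5 was 0.58 from mock to Pe day 0, -0.38 from Pe day 0 to Pe day 3 and 0.03 from mock to Pe day 3, against 0.17, 0.01 and 0.21 over all 73. The first and second of these medians are values of miR-958 itself, and over the 3 rows of miR-8 and miR-317 the medians were 0.84, -0.52 and 0.03. In the same order, miR-317-3p had log2 changes of 0.86, -0.52 and 0.34, miR-8-5p of 0.84, -0.80 and 0.03, and miR-8-3p, the abundant arm of a regulator of growth in the fly, of -0.24, 0.07 and -0.18. No single row of the miR-310 to miR-313 cluster exceeded 71.1 RPM in a library, the highest value of miR-312-3p. Both arms of miR-964 were listed at 0.

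**Figure D5:**
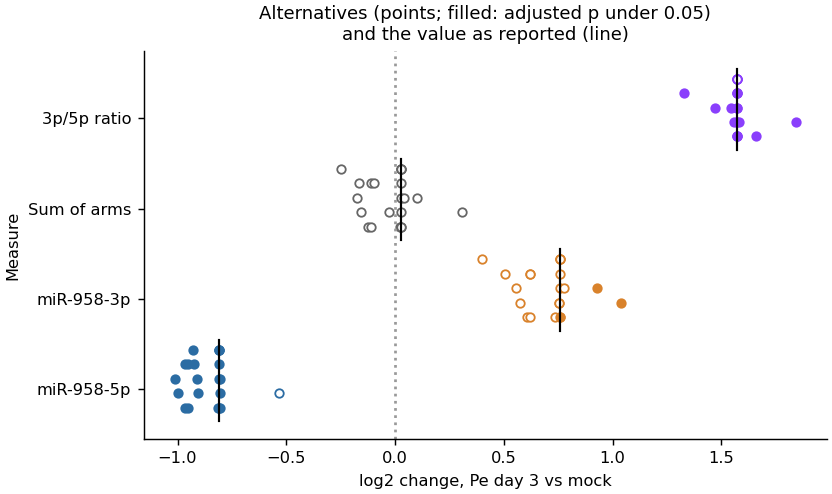
log2 change from mock to Pe day 3 (x axis) of each arm, their sum and their ratio (y axis) under the alternatives run (points, spread vertically and partly overlapping, filled where the adjusted p is under 0.05) and as reported (black lines). The ratio stays between 1.33 and 1.84 and the sum between -0.25 and 0.31.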

How the data were processed

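Small RNA libraries (Illumina TruSeq small RNA kit, 2 µg of TRIzol-extracted total RNA, per the labels' protocols) were deposited as RPM per miRNA, and each column sums to 1000000. The deposited table's name mentions miRge; aligner, miRNA database and build are not given in the sources used here. Per the file headers, the authors also deposited, for each miRNA, a mean signal, log2 fold changes with their SE, a Wald score and p-values. The submitters' processing notes name DESeq2 1.22.0 among what the authors used. The unnamed contrasts of the authors' deposited table matched Pe day 0 and Pe day 3 over mock within 0.033 and 0.045 (47 miRNAs). RPM steps gave reads within 1.27e-06 of whole numbers, the smallest listed value being 2 reads. These reads were not treated as deposited counts, so the planned count tests were not run; they served for depth, intervals, TMM factors and the limma voom alternative.

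Scaling used TMM factors (30% and 5% trimmed). The 73 miRNAs with at least 20.1 RPM (10 reads at the median depth of 497997) in 3 libraries were tested as log2(scaled RPM + 4.02) with limma 3.58.1 in R 4.3.3 (trended, robust, 9 libraries, 6 residual degrees of freedom, Benjamini-Hochberg threshold 0.05). The pseudocount slightly understates changes. Sums covered 52 hairpins and ratios 21. The scripts were tested on simulated data. Wilson intervals cover counting error only, since PCR copies are not independent molecules; limma's intervals rest on the spread between libraries. Same-numbered mock and Pe day 0 libraries deviated together (correlations 0.24, 0.43 and 0.36 over miRNAs, 0.19, 0.46 and 0.74 over arm ratios), so blocked values stand beside that comparison; the labels name no shared batch. Named miRNAs were both arms, the 3 most and 1 least alike per arm, neighbours in level, the 3 largest shifts of arm ratio and a Toll list. Members, lists and tests were chosen with earlier results of these data known. Sequences and seed sharing were not analysed here.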

Additional observations from a re-analysis of the deposited data

How the results depend on the processing

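The fall of miR-958-5p and the shift of the arm ratio from mock to Pe day 3 passed the threshold in 19 of 21 and 19 of 20 alternatives, the rise of miR-958-3p in 6 of 21. Scaling between libraries nearly cancels in the arm ratio. Its passes with other scalings were therefore close to fixed in advance and are no check of it. Why calls changed was not tested. The replicate block in a model of only the groups compared was added after seeing the data. Planned count tests were not run. At Pe day 3 against mock, miR-958-5p lost its call with RPM as deposited (-0.53) and plain empirical Bayes (-0.81), and the arm ratio with the block in a model of only these groups (1.57, adjusted p = 0.059). miR-958-3p lost its own with median-of-ratios factors (0.60), the total leaving out the 5 most abundant miRNAs (0.56), no filter, the replicate block or plain empirical Bayes (each 0.76), only these groups with or without the block (0.62), and limma voom (0.73); without single libraries it lay at 0.40 to 0.93. At Pe day 3 against Pe day 0, miR-958-3p lay at -0.063 to 0.43 without single libraries. For Pe day 0 against mock, miR-958-5p gained a call with the block in a model of only these groups (-0.61). The arm ratio gained one there with a pseudocount of 10 reads (1.002), the replicate block (1.01) and only these groups with or without the block (1.01), and lay at 0.88 to 1.205 without single libraries. Between the Pe groups it lay at 0.32 to 0.83.

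The sum of the arms changed sign against mock at Pe day 0 with median-of-ratios factors (-0.13), the total leaving out the 5 most abundant miRNAs (-0.062) and only these groups with or without the block (-0.12), and at Pe day 3 with the same settings (-0.13, -0.17 and -0.11). Between the Pe groups it did so with median-of-ratios factors (0.0073) and RPM as deposited (0.18). Without single libraries the sum lay at -0.13 to 0.085, at -0.25 to 0.10 and at -0.24 to 0.16 in these comparisons.

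Calls among miRNAs at Pe day 0 against mock went from 3 to 0 (RPM as deposited, no filter, plain empirical Bayes), 7 (filter of 100 RPM), 1 (replicate block) and 13 (block with only these groups), and to 0 to 8 without single libraries. Between the Pe groups they went from 2 to 4 (RPM as deposited, the total leaving out 5 miRNAs, no filter, plain empirical Bayes), 6 (replicate block) and 5 (block with only these groups), and 2 to 7 without single libraries. At Pe day 3 against mock they went from 13 to 8 with plain empirical Bayes and 4 to 15 without single libraries. Calls among sums at Pe day 0 went from 4 to 2 (median-of-ratios), 0 (RPM as deposited, no filter, plain empirical Bayes, voom) and 1 (block with only these groups), and 0 to 6 without single libraries. Between the Pe groups they went from 2 to 4 with that last fit, and at Pe day 3 against mock from 12 to 7 (no filter, the total leaving out 5 miRNAs) and 3 to 12 without single libraries. Calls among ratios at Pe day 0 went from 0 to 1 (filter of 100 RPM), 3 (pseudocount of 10 reads) and 4 (replicate block, only these groups, both), and 0 to 3 without single libraries. Between the Pe groups they went from 4 to 1 (no filter), 7 (pseudocount of 10 reads), 9 (replicate block) and 2 (only these groups), and 1 to 11 without single libraries. At Pe day 3 against mock they went from 5 to 2 (no filter), 3 (filter of 100 RPM, pseudocount of 0.5 reads, plain empirical Bayes), 8 (replicate block) and 0 (block with only these groups), and 2 to 10 without single libraries.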
